A study of Mus musculus with 20 samples.

Results

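Cxcr4-GFP mice carry a green fluorescent reporter of Cxcr4, and the 8 brain libraries described here are the complete set made from them, out of 20 libraries in the series. All were collected 3 days after permanent photothrombosis, a stroke model in which an injected dye, activated by light through the skull, closes vessels of the cortex. The 4 microglia libraries are labelled GFP-negative and the 4 monocyte libraries GFP-positive, so that cell population and reporter signal coincide and cannot be told apart. Libraries were paired by origin: pair 1 came from 2 mice, pair 2 from a pool of 5 mice, and pairs 3 and 4 from 1 mouse each, and every pair gave 1 microglia and 1 monocyte library with the same number. No library of mice without stroke was analysed here, and the labels give no age, no sex and no sorting antibody. The titles of all 8 carry an unexplained tag, BrKo, so that nothing beyond the Cxcr4-GFP genotype is known of the mice. A second set of libraries, from the control mice of the Cxcr4CreER line (3 of TdT-negative microglia and 3 of TdT-positive monocytes, the same number of days after the lesion), shared no animal with these and served for comparison. Libraries of the line's knockout mice, 3 of microglia and 3 of monocytes, entered only the fit of that second set.

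Microglia are the macrophages that settle in the brain before birth and renew themselves there; they depend on the receptor Csf1r and keep their identity through transcription factors such as Sall1. Monocytes form in the bone marrow and enter the brain after an injury, where they turn into macrophages. Cxcr4 is the receptor of the chemokine Cxcl12, which holds blood cells in the marrow and draws them to sites that make the chemokine.

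Total RNA was sequenced, and the deposited values are normalized counts, that is, reads per gene divided by 1 factor per library. The libraries held 617302 to 14927208 reads, of which the ribosomal transcript Rn45s took 22.1% to 48.3%, and 1 read was worth 0.104 to 2.58 normalized counts. Microglia 3, microglia 4 and monocytes 3 stood apart before any comparison, in which 5598, 3489 and 3029 genes had a read, while the remaining libraries detected 10422 to 14498. Of the genes with a median of 100 or more in the other libraries of the group, 9.33% were at 0 in microglia 3, 29.3% in microglia 4 and 37.0% in monocytes 3, against at most 0.156% in the others. These libraries held 851003 to 1106506 reads, and microglia 1 and monocytes 4 detected 11451 and 11138 genes from fewer reads (617302 and 647508). Counts are therefore given with all 8 libraries and with the 5 that remain without these (microglia 1 and 2 against monocytes 1, 2 and 4), and the 5-library difference of a called gene is printed where it differs by over 1.5-fold.

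**Figure D1:**
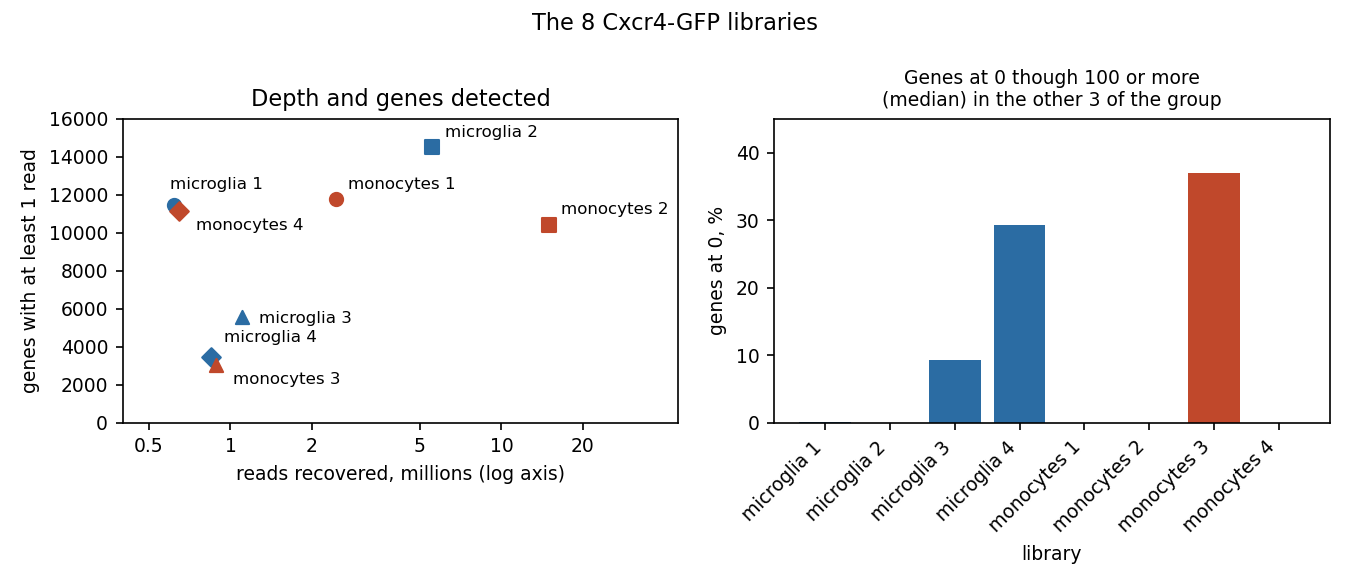
Left, genes with at least 1 read against reads recovered (log axis) in each of the 8 libraries, microglia in blue and monocytes in red; right, the percentage of genes at 0 in a library among those with a median of 100 or more normalized counts in the other 3 libraries of its group. Microglia 3, microglia 4 and monocytes 3 sit at 5598, 3489 and 3029 detected genes, below the other 5.

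Promoter sequence is shown for Cxcr4, the gene of the reporter, and for H2-Aa and H2-Eb1, MHC class II genes described below that share the promoter boxes of their family. Each is the 250 bases before the RefSeq start of the gene (build GRCm38.p6), read 5′ to 3′ on the gene's strand. The Cxcr4 window (chr1:128592300-128592549, minus strand) holds GCATGCG, a core part of the motif of nuclear respiratory factor 1, in capitals. H2-Aa (chr17:34287824-34288073, minus strand) and H2-Eb1 (chr17:34305617-34305866, plus strand) hold GCAAC and GATTGG, cores of the X and Y boxes of MHC class II promoters, where the RFX and NF-Y complexes bind and Ciita is recruited, also in capitals.
Cxcr4: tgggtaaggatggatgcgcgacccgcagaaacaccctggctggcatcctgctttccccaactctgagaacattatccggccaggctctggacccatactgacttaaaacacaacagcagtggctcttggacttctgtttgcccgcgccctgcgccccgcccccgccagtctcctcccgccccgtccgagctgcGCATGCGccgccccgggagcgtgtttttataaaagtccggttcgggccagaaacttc
H2-Aa: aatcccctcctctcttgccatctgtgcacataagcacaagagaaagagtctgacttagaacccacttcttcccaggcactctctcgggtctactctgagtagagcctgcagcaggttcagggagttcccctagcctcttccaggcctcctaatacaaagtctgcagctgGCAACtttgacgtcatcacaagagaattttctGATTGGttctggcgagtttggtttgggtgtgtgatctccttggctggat
H2-Eb1: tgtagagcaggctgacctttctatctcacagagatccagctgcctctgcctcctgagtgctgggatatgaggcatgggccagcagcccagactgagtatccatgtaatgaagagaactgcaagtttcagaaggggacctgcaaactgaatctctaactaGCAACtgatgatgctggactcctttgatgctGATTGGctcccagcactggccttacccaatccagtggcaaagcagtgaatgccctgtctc
The first capital letter lay 57 bases before the start in Cxcr4, 81 in H2-Aa and 91 in H2-Eb1, and 27 and 26 bases separated the X and Y cores of H2-Aa and H2-Eb1. Among 32851 promoters of the same length, searched on both strands, 3.02% held GCATGCG and 0.435% held GCAAC followed within 10 to 40 bases by GATTGG. A match describes the letters only and shows no binding.

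The 4 genes that mark the populations followed the labels in all 8 libraries. Cxcr4 stood at 10.3, 9.04, 0 and 0 normalized counts in microglia 1 to 4 and at 2788, 2036, 1266 and 3017 in monocytes 1 to 4. Cd74, the invariant chain that escorts MHC class II molecules, stood at 18.1, 40.02, 2.5 and 1.48 in microglia and 4569.6, 5098, 2906 and 4668 in monocytes. Sall1 had the opposite pattern, at 1273, 1640.3, 1990.5 and 901 in microglia and 30.1, 12.7, 0 and 46.05 in monocytes. Sparc, a secreted matrix protein made by microglia, was at 2903, 3988, 2916 and 4362 and 143, 80.2, 112 and 84.8. The groups did not overlap for any of these, and Sparc was above 0 in every library, those of few genes included. Monocytes 3 was the lowest monocyte library for Cxcr4, Cd74 and Sall1. The fitted log2 differences of monocytes against microglia were 9.37 (SE 1.30) for Cxcr4, 8.86 (SE 0.99) for Cd74, -6.87 (SE 1.19) for Sall1 and -5.08 (SE 0.56) for Sparc. Each gave an exact two-sided permutation p of 0.0286, the smallest that 4 against 4 libraries allow, and p = 0.125 by exact sign-flips within the 4 pairs, the smallest that 4 pairs allow. Any gene whose groups do not overlap gives this permutation p, and 725 of the 7706 tested genes (9.41%) do not. The 4 genes were chosen with earlier results of these data known, so these p-values add no support. When 1 library was left out, the log2 difference ran from 8.80 (without microglia 3) to 9.97 (without microglia 1) for Cxcr4, 8.24 (without microglia 4) to 9.58 (without microglia 2) for Cd74 and -7.53 (without monocytes 4) to -5.68 (without monocytes 3) for Sall1. With the 5 libraries Cxcr4 differed by log2 7.92, Cd74 by 7.41 and Sall1 by -5.74. Since the cells are labelled by the Cxcr4 reporter, the Cxcr4 difference checks the labels and is no separate result. Because these are bulk libraries, fewer cells of a type and less RNA per cell cannot be told apart in any of these values.

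Other defining markers also followed the labels, with gaps in the libraries of few genes. Ccr2, the receptor through which monocytes leave the marrow, was at 1040.1, 1777, 0 and 679 in monocytes 1 to 4, so that monocytes 3 was at 0, and at 20.7, 10.8, 0 and 0 in microglia. Tmem119, a microglial surface protein, was at 849.8, 1354, 2529 and 1830.0 in microglia and 82.7, 131, 0 and 124 in monocytes. Lyz2, the lysozyme of myeloid cells, was present in every library, at 139, 138, 33.7 and 197 in microglia and 3967, 6287, 1227 and 3841 in monocytes, without overlap.

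**Figure D2:**
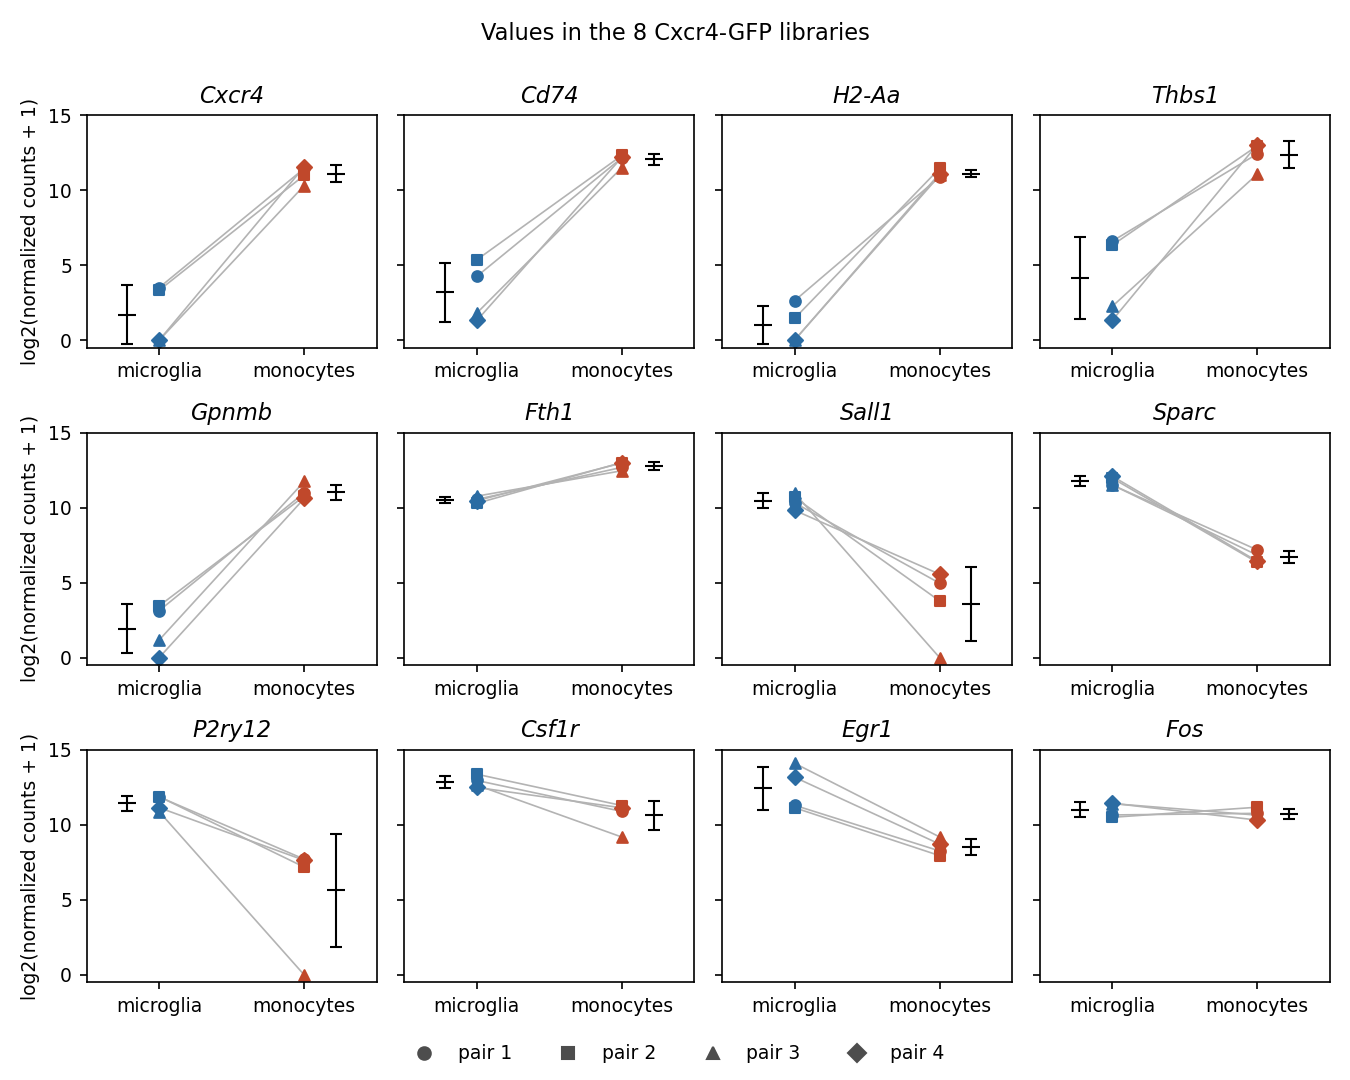
Values of 12 genes as log2(normalized counts + 1) in microglia (blue) and monocytes (red), with each pair joined by a line and its own symbol, and black bars for the mean and SD of the 4 libraries of a group. Fth1 and Sparc are tight within each group, P2ry12 and Sall1 reach 0 in monocytes 3, and the groups overlap for Fos.

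Which genes separate the populations was asked across 7706 genes, those with 10 or more normalized counts in at least 4 of the 8 libraries. A gene is called here where limma on log2(value + 1) gave an adjusted p (Benjamini-Hochberg) under 0.05, the adjustment covering all 7706 genes. Of these, 70 were called (0.908%), 32 higher in monocytes (0.415%) and 38 lower (0.493%). Groups did not overlap for 725 tested genes (9.41%; 5.22% higher and 4.19% lower), which include all 70. The median fitted log2 difference over all tested genes was 0.51, so that an unchanged gene lies below the middle of all genes. With upper quartile scaling the split of calls moved from 32 higher and 38 lower to 11 and 2. With the pair as a block, 60 genes were called (0.779%; 0.363% higher and 0.415% lower), 52 of them among the 70, and the block's adjusted p is given below for each named gene whose call it ended.

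The count depended on which libraries entered. Without microglia 3, microglia 4 and monocytes 3, 1198 of the 7706 genes were called (15.5%), 648 higher (8.41%) and 550 lower (7.14%), and these included all 70. The median over all genes was then -0.07. Leaving out microglia 3 alone gave 33 calls (20 higher, 13 lower), and leaving out monocytes 3 alone gave 129 (69 higher, 60 lower). Higher calls were 58 without microglia 1, 49 without microglia 2 and 21 without monocytes 2 or monocytes 4, and lower calls were 18 without microglia 4, 61 without monocytes 1 and 62 without monocytes 4. Of the 38 lower genes, 17 were at 0 in monocytes 3, and all 17 were also called in the 5 libraries. Of the 32 higher genes, 14 were at 0 in microglia 4 and 13 in microglia 3. The fitted fold of 40 of the 70 genes moved by over 1.5 times in the 5 libraries, and that of 41 when some single library was left out. Leaving out 1 library at a time ended the call of 42 of the 70 at least once, of 37 without microglia 3 and of 28 without microglia 4, while 28 kept it throughout. Such values are given after each group of genes. The shares over all tested genes are the background for every list count below. They are 0.415% higher and 0.493% lower with 8 libraries, and 8.41% and 7.14% with 5. The minimum of 10 was reached only in monocytes by 67 tested genes, 11 of them called, and only in microglia by 24, 2 of them called. These genes could be tested only because they were high on that side, so the counts of lists that hold 4 or more are also given without them.

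**Figure D3:**
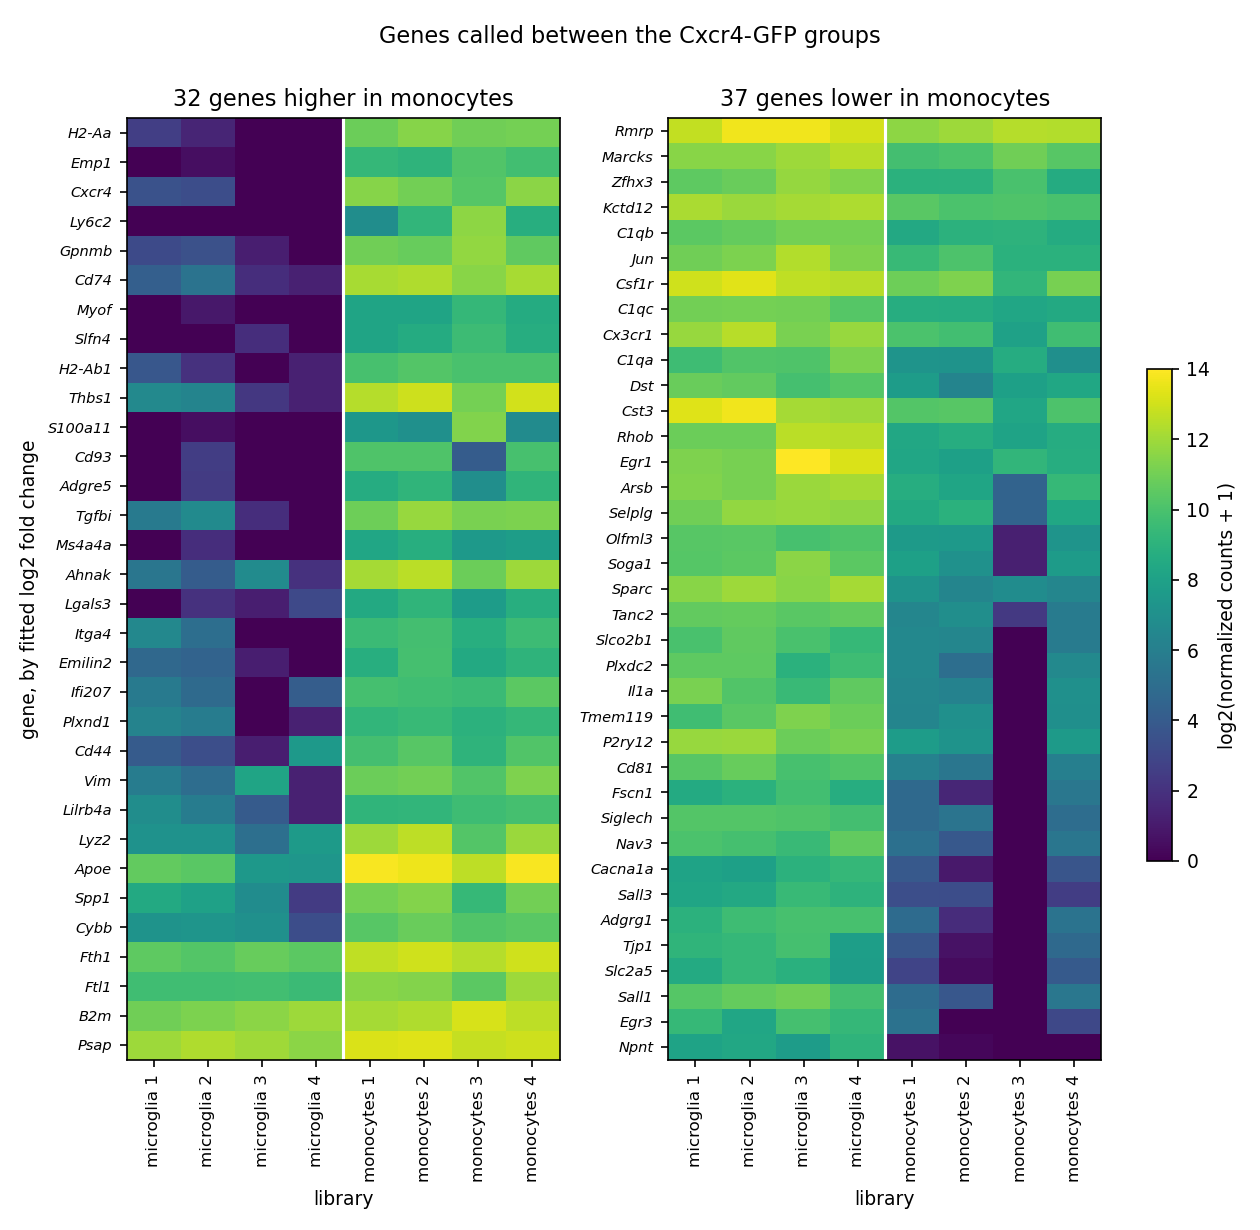
Called genes (69 of the 70) in the 8 libraries, as log2(normalized counts + 1) on a colour scale from 0 (dark) to 14 (bright), ordered by fitted log2 fold change. Dark cells in the monocytes 3 column of the right panel are the 17 lower genes at 0 in that library.

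Of 9 tested MHC class II genes, which present antigen to helper T cells, 3 were called higher in monocytes with 8 libraries and none lower, beside 0.415% of all tested genes called higher. The alpha and beta chains of the class II molecule I-A, H2-Aa and H2-Ab1, were near 0 in microglia and high in every monocyte library. H2-Aa was at 5.17, 1.72, 0 and 0 in microglia and 1878, 2784, 2016 and 2193 in monocytes (log2 10.08, SE 1.34, adjusted p = 4.44e-05, and log2 9.11 in the 5 libraries). H2-Ab1 was at 12.9, 3.01, 0 and 1.48 and 956, 1242, 1027 and 991 (log2 8.26, SE 1.40, adjusted p = 0.00137, and log2 7.14 in the 5 libraries). Cd74 is the other called member of this list of 14. Over the 9 tested genes, of which 1 reached the minimum only in monocytes, the median log2 difference was 3.48, and in the 5 libraries 5 were called higher and the median was 1.46. The share of all tested genes called higher there was 8.41%. With 1 library left out, the log2 difference ran from 7.66 (without microglia 3) to 8.93 (without microglia 1) for H2-Ab1. H2-Eb1, whose promoter is printed above, was at 358, 529, 17.2 and 399.9 in monocytes and 2.58, 1.29, 1.25 and 96.3 in microglia, so that monocytes 3 lay below microglia 4 and the gene was not called with 8 libraries (adjusted p = 0.331). It was called in the 5 libraries (log2 7.21, SE 0.41), as was H2-DMa, which loads peptides (log2 1.46). Among costimulators, Cd86 was at 439, 388, 177 and 276 in microglia and 365, 82.5, 0 and 310.2 in monocytes and Cd80 at 0 to 46.5 and 0 to 96.9, and neither was called in either set.

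Of 14 tested genes of MHC class I, which all nucleated cells carry, 1 was called higher with 8 libraries and 4 in the 5 libraries, with list medians of 1.19 and 0.46. The shares of all tested genes called higher were 0.415% and 8.41%. B2m, its light chain, was at 2012, 2442, 2999 and 3946 in microglia and 4370.4, 5237, 9182 and 6188 in monocytes, a non-overlapping difference (log2 1.12, SE 0.26, adjusted p = 0.0296). The call was lost without microglia 3 or 4 or monocytes 3, and also with TMM scaling (adjusted p = 0.0631), upper quartile scaling (adjusted p = 1), edgeR (adjusted p = 0.71) and DESeq2 (adjusted p = 0.893). Reads of class I genes, Ly6c2, Fth1, Ftl1, Slfn4 and Ifi207 may be shared with near-identical relatives or pseudogenes, and how the counting treated them is not given, so their values are uncertain to that extent. The heavy chain H2-D1 was at 179 to 649 in microglia and 827 to 2029 in monocytes, also without overlap, but was called only in the 5 libraries (log2 1.22, adjusted p = 0.0073; with 8, adjusted p = 0.281).

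Among genes of classical monocyte identity, 29 of 43 listed were tested, 10 were called higher and none lower, and 19 were not called, beside 0.415% of all tested genes called higher. Of the 29, 8 reached the minimum only in monocytes, and of the other 21, 6 were called higher, with a median log2 difference of 4.60 beside 0.50 over all tested genes that reached it in both groups. Among the called members is Ahnak, a giant scaffold protein under the plasma membrane, at 43.9, 15.9, 106 and 2.96 in microglia and 4348, 5889.8, 1882 and 3883 in monocytes (log2 7.28, SE 0.90, adjusted p = 1.72e-05). Lyz2 differed by log2 4.94 (SE 0.65, adjusted p = 4.44e-05). Vim, the intermediate filament of motile cells, was at 56.8, 30.98, 285 and 1.48 and 1832, 2036, 1156 and 2467 (log2 5.74, SE 1.05, adjusted p = 0.00305). All 3 were high in every monocyte library, and monocytes 3 was the lowest of the 4. Ly6c2, the antigen of inflammatory monocytes, was at 0 in all 4 microglia libraries and at 115, 596, 3146 and 446 in monocytes, at least 1501-fold higher against a floor of 3 reads over the microglia libraries (adjusted p = 0.00845). Slfn4, a Schlafen family gene of myeloid cells, was at 289, 386, 765 and 419 in monocytes with 2 reads in microglia, a ratio of 973 (95% counting interval 269 to 8037, adjusted p = 0.016). S100a11, a calcium-binding partner of annexins, was at 167, 130.5, 2573 and 107 with 1 read in microglia, a ratio of 3116 (559 to 123081, adjusted p = 0.0409, block adjusted p = 0.0508). For Ly6c2 and S100a11, monocytes 3 lay far above the other monocyte libraries. Without it the fold was at least 538 for Ly6c2, and the ratio was 564 for S100a11. Microglia 2, the deepest microglia library, moved these values too: without it the fold was at least 668 for Ly6c2 and at least 462 for S100a11, and the ratio was 433 for Slfn4. Slfn4 was at least 525-fold higher without microglia 3. As single libraries were left out, the log2 difference ran from 6.42 (without microglia 4) to 8.0 (without microglia 3) for Ahnak, 4.48 (without microglia 4) to 6.76 (without microglia 3) for Vim and 6.93 (without monocytes 3) to 8.46 (without monocytes 4) for S100a11. Calls were lost for Slfn4 without monocytes 1, 2 or 4 and S100a11 without any 1 library but microglia 1 or 2 or monocytes 3.

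Members that missed the call with 8 libraries were mostly called in the 5 libraries. There 24 of the 29 were called higher and none lower, and 16 of the 21 that reached the minimum in both groups, beside 8.41% of all tested genes. Ccr2 differed by log2 6.08 (SE 0.40), and Plac8, at 127, 646, 399 and 150.3 in monocytes and 12.9, 11.2, 0 and 113 in microglia, by log2 4.15 (SE 0.60). Chil3, a chitinase-like lectin of monocytes, was at 0 in all microglia libraries and at 61.4, 324, 47.6 and 136 in monocytes, at least 199-fold higher (88.3 without microglia 2 and 114 without monocytes 2), with adjusted p = 0.0801 in the 8 libraries. Napsa, an aspartic protease, was likewise at 0 in microglia and at 36.3, 109, 140.1 and 53.3 in monocytes, at least 118-fold higher (52.5 without microglia 2; adjusted p = 0.0923). Ly6e, at 851 to 9739.8 in microglia and 1176 to 15404 in monocytes, overlapped between the groups and was called in neither set.

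Adhesion genes were called in both directions, 2 higher and 2 lower of 21 tested, beside 0.415% and 0.493% of all tested genes. In the 5 libraries 7 were called higher and 8 lower, beside 8.41% and 7.14%. Cd44, the hyaluronan receptor, was at 15.5, 9.47, 1.25 and 182 in microglia and 889.7, 1333, 558 and 1195 in monocytes (log2 5.85, SE 1.22, adjusted p = 0.0119). Itga4, the alpha-4 integrin that binds Vcam1 on inflamed vessels, was at 90.4, 32.7, 0 and 0 and 741, 915, 435 and 771 (log2 6.54, adjusted p = 0.0276, block adjusted p = 0.0508). Lower in monocytes were Selplg, the P-selectin ligand, at 1973, 3418, 3722 and 3254 against 360.3, 493, 21.1 and 319.9 (log2 -3.99, SE 0.71, adjusted p = 0.0021, and log2 -2.75 in the 5 libraries), and Tjp1, the tight junction scaffold ZO-1, at 579, 645, 919 and 233 against 12.5, 0.624, 0 and 26.7 (log2 -6.75, adjusted p = 0.026, block adjusted p = 0.0595). Leaving out 1 library, the log2 difference ran from 4.90 (without microglia 3) to 7.02 (without microglia 4) for Cd44, 5.57 (without microglia 3) to 7.74 (without microglia 1) for Itga4, -4.46 (without monocytes 2) to -2.96 (without monocytes 3) for Selplg and -7.57 (without monocytes 4) to -5.97 (without monocytes 3) for Tjp1. Calls ended for Itga4 without any 1 library but microglia 1 or 2, Selplg without microglia 4 and Tjp1 without microglia 1, 2, 3 or 4. The 5 libraries gave log2 3.86 for Itga4. Integrin chains shared by macrophages were not called with 8 libraries: Itgam, the CD11b chain, was at 2007 to 3051 in microglia and, leaving aside 1.32 in monocytes 3, at 922, 1226 and 1139 in monocytes, and it was called lower in the 5 libraries (log2 -1.24, adjusted p = 0.00184). Itgb2, its partner, was called in neither set (log2 0.17 in the 5).

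Matrix and repair factors were called only in the upward direction, 3 of 20 tested, beside 0.415% of all tested genes called higher. Thbs1, a matricellular protein released by platelets and macrophages at wounds, was at 95.6, 79.2, 3.75 and 1.48 in microglia and 5457, 7924, 2139.8 and 8374 in monocytes (log2 8.25, SE 1.0, adjusted p = 1.57e-05, and log2 6.34 in the 5 libraries). Tgfbi, a matrix protein induced by TGF-beta, was at 54.2, 104, 2.5 and 0 and 1925, 3726, 2330.2 and 2438 (log2 7.73, SE 1.20, adjusted p = 0.000333, and log2 5.09 in the 5 libraries). Emilin2, an elastic fibre glycoprotein, was at 439, 943, 369 and 559.9 in monocytes and at most 25.8 in microglia (log2 6.49, adjusted p = 0.0266, block adjusted p = 0.0507). Without 1 library at a time, the log2 difference ran from 7.31 (without microglia 4) to 9.07 (without microglia 1) for Thbs1, 6.54 (without microglia 4) to 8.77 (without microglia 2) for Tgfbi and 5.63 (without microglia 4) to 7.21 (without microglia 1) for Emilin2. Adjusted p passed 0.05 for Emilin2 without microglia 3 or monocytes 1, 2 or 4. With the 5 libraries Emilin2 differed by log2 4.67. Fn1, fibronectin, reached 6018, 9141 and 6367 in monocytes 1, 2 and 4 but 10.6 in monocytes 3, against 261, 252, 1.25 and 2.96 in microglia; it was not called without the block (adjusted p = 0.123), was called with it (block adjusted p = 0.0395) and in the 5 libraries (log2 4.78, SE 0.22). Vegfa, the growth factor of endothelium, had the same shape, with 669, 714, 0 and 681 in monocytes, 5.17, 6.45, 0 and 120.0 in microglia and log2 6.67 (SE 0.29) in the 5 libraries. Of the 20, 11 were called higher and 3 lower in the 5 libraries, beside 8.41% and 7.14% of all tested genes. The 3 include Adamts1 and Pdgfb.

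Proteins of the membrane and its cortex included 5 called higher and 1 called lower of 23 tested, beside 0.415% and 0.493% of all tested genes. Of the 23, 4 reached the minimum only in monocytes, 3 of them among the 5 (Emp1, Myof and S100a11), and of the other 19, 2 were called higher and 1 lower. In the 5 libraries 15 of the 23 were called higher and 1 lower, or 11 and 1 of the 19. The shares of all tested genes there were 8.41% and 7.14%. Emp1, a small membrane protein, was at 651, 556, 1163 and 858 in monocytes with 1 read in all microglia libraries, a ratio of 3379 (95% counting interval 606 to 133444, adjusted p = 0.00246). Myof, a ferlin that reseals torn membranes, was at 285, 286, 636 and 390.2 with 2 reads in microglia, a ratio of 836 (231 to 6901, adjusted p = 0.0193). Without microglia 2 the fold was at least 501 for Emp1 and at least 248 for Myof. Ahnak, Vim and S100a11 are the other 3, and in the 5 libraries the annexins Anxa2 (log2 4.37), Anxa4 (3.04), Anxa5 (3.30) and Anxa11 (3.67) were called higher as well. Fscn1, an actin-bundling protein, was the lower one, at 382, 489.7, 873 and 415 in microglia and 26.3, 1.87, 0 and 46.05 in monocytes (adjusted p = 0.0422, block adjusted p = 0.0771). In fits without 1 library, the log2 difference ran from -6.90 (without monocytes 4) to -5.05 (without monocytes 3) for Fscn1. Calls were lost for Myof without monocytes 1, 2 or 4 and Fscn1 without microglia 1, 2, 3 or 4. The 5 libraries gave log2 -4.81 for Fscn1. Actb, at 8606 to 12909 in microglia and 6371 to 14004 in monocytes, was called in neither set.

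Lipid and lysosome genes of phagocytes gave 4 calls of 28 tested, all higher, beside 0.415% of all tested genes called higher. In the 5 libraries 14 were called higher and 5 lower, beside 8.41% and 7.14% of all tested genes. Apoe, the lipid carrier, was at 1609, 1344, 176 and 164 in microglia and 14684, 13021, 6122 and 15060.5 in monocytes (log2 4.52, SE 0.53, adjusted p = 1.13e-05, and log2 3.27 in the 5 libraries). Gpnmb, a glycoprotein of lipid-laden macrophages, was at 7.75, 9.9, 1.25 and 0 and 2028, 1729.9, 3418 and 1561 (log2 9.09, SE 1.24, adjusted p = 6.93e-05, and log2 7.50 in the 5 libraries). Spp1, osteopontin, was at 362, 256, 112 and 4.45 and 2164, 2677, 669 and 2099 (log2 4.28, SE 0.96, adjusted p = 0.0224, and log2 2.91 in the 5 libraries), and Psap, the precursor of the saposins, at 3059.9 to 5127 and 6940.2 to 10029 (log2 1.08, SE 0.20, adjusted p = 0.00421). None of the 4 overlapped between groups, yet Gpnmb was close to 0 in microglia, whereas Psap was high in both populations. With single libraries left out, the log2 difference ran from 8.44 (without microglia 4) to 9.59 (without microglia 2) for Gpnmb and 2.94 (without microglia 4) to 4.96 (without microglia 1) for Spp1. The call ended for Spp1 without microglia 3. Psap was not called with upper quartile scaling, TMM scaling (adjusted p = 0.087), edgeR (0.578) or DESeq2 (0.911). Fabp5, a fatty acid carrier, and Pla2g7, a lipoprotein phospholipase, were called in the 5 libraries alone (log2 7.54 and 3.57). The proteases divided: Ctsb was called higher in the 5 libraries (log2 1.35), and Ctsd and Lgmn lower (log2 -1.06 and -0.92), with block adjusted p = 0.0185 and 0.0498 in the 8 libraries. Ctss, at 1009 to 4650.3 in microglia and 1579 to 5025 in monocytes, was called in neither set.

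Several of these genes are known as markers of disease-associated microglia, a state that microglia enter near damage. Of 15 tested genes of the list used here, 2 were called higher in monocytes, Fth1 and Lilrb4a, and none lower. The shares of all tested genes were 0.415% higher and 0.493% lower. Apoe, Gpnmb and Spp1, called higher above, were counted in the lipid list and not in this one. The count of 2 leaves them out. Axl, a receptor for dying cells, was at 186, 193, 1.25 and 370.4 in microglia and 541, 624, 1964 and 499 in monocytes, and Clec7a, the beta-glucan receptor, at 2.58, 4.73, 73.7 and 1.48 and 755, 748, 5.29 and 587. Both were called higher in the 5 libraries (log2 1.54 and 7.26), where 7 of the 15 were higher and 2, Ctsd and Csf1, lower. The shares of all tested genes there were 8.41% and 7.14%. Csf1, a growth factor that microglia make for themselves, was at 506, 247, 395 and 671 in microglia and 21.3, 26.1, 1.32 and 162 in monocytes.

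Iron storage and the NADPH oxidase accounted for the 3 calls, all higher, among 32 genes of iron, heme and oxidative stress. Over all tested genes, 0.415% were called higher. In the 5 libraries 11 of the 32 were called higher and 4 lower, beside 8.41% and 7.14% of all tested genes. Fth1, the ferritin heavy chain, was high in all 8 libraries, at 1488, 1242, 1731 and 1405 in microglia and 6557, 8187, 5597 and 8042 in monocytes (log2 2.27, SE 0.26, adjusted p = 6.42e-06). Ftl1, the light chain, was at 842, 828, 879 and 753 and 2966, 2691, 1417 and 4028 (log2 1.66, SE 0.39, adjusted p = 0.0317). Cybb, the catalytic subunit of the phagocyte oxidase, was at 147, 159.6, 129.9 and 8.89 and 1315, 1759.8, 1182 and 1369 (log2 4.22, SE 0.85, adjusted p = 0.00842, and log2 3.25 in the 5 libraries). On leaving out 1 library, the log2 difference ran from 3.25 (without microglia 4) to 4.59 (without microglia 2) for Cybb. Adjusted p passed 0.05 for Ftl1 without any 1 library but microglia 1 or 2 or monocytes 3. Ftl1 was also not called with upper quartile scaling, TMM scaling (adjusted p = 0.125), edgeR (0.19) or DESeq2 (0.381). The oxidase subunits Cyba, Ncf1 and Ncf4 were not called with 8 libraries, and in the 5 libraries Ncf4 was higher (log2 1.78), Ncf1 lower (log2 -0.77) and Cyba not called. Slc40a1, the iron exporter ferroportin, was at 196, 244, 283 and 2.96 in microglia and 11.3, 0, 0 and 31.5 in monocytes, and was called lower in the 5 libraries (log2 -4.90, adjusted p = 0.0132). Hmox1, which degrades heme, was at 43.9, 76.6, 475 and 170.4 in microglia and 385, 277, 1.32 and 666 in monocytes, and was called higher there (log2 2.81); with 8 libraries the groups overlapped, the value was log2 -0.19 and it was not called. The antioxidant genes Prdx1, Prdx6 and Gsr were also called higher in the 5 libraries, each at 0 in monocytes 3.

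Microglial identity genes, in 3 lists, had lower calls and no higher call with 8 libraries. Of 12 transcription factors tested, Sall1 and its relative Sall3 were called lower, and in the 5 libraries 5 were called lower and 1 higher. The shares of all tested genes were 0.493% lower with 8 libraries, and 7.14% lower and 8.41% higher with 5. Sall3 was at 299.6, 349, 696 and 529 in microglia and 9.4, 8.95, 0 and 4.85 in monocytes (log2 -6.48, adjusted p = 0.0298, block adjusted p = 0.0595). Upon leaving out 1 library, the log2 difference ran from -6.84 (without monocytes 1) to -5.71 (without monocytes 3) for Sall3. The call was lost for Sall3 without microglia 1, 2, 3 or 4. With the 5 libraries Sall3 differed by log2 -5.26. The other 10 include factors that both populations use. Spi1, the master factor of myeloid cells, was at 139.9 to 262 in microglia and 23.8 to 269 in monocytes and Maf at 289 to 854 and 349 to 502, and neither was called in either set. Called lower in monocytes in the 5 libraries were Mef2c, Irf8 and Bhlhe41 (log2 -1.18, -0.96 and -1.71). For Bhlhe41 the sign depended on the libraries, since its uncalled value with 8 was log2 1.44 and microglia 4 was at 0.

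Surface and uptake genes of microglia gave 10 lower calls and no higher call among 27 tested, beside 0.493% of all tested genes called lower. The list had a median log2 difference of -3.58. Of the 27, 24 were called lower in the 5 libraries, beside 7.14% of all tested genes. P2ry12, the receptor that steers microglial processes to ATP, was at 3729.7, 3781, 1886 and 2270.1 in microglia and 209, 145, 0 and 199 in monocytes (log2 -5.81, SE 1.13, adjusted p = 0.00577, and log2 -4.36 in the 5 libraries). Siglech, a sialic acid lectin, was at 1237, 1239.7, 1131 and 911 and 26.3, 40.3, 0 and 31.5 (log2 -6.34, SE 1.20, adjusted p = 0.00452, and log2 -5.22 in the 5 libraries). Adgrg1, an adhesion receptor, was at 511, 795, 957 and 969 and 28.8, 2.39, 0 and 38.8 (log2 -6.62, SE 1.37, adjusted p = 0.0111, and log2 -5.33 in the 5 libraries). P2ry12, Siglech and Adgrg1 were at 0 in monocytes 3 but low in the other monocyte libraries too. Csf1r was instead high in both populations, at 7981, 10648, 6436 and 5780.4 in microglia and 1909, 2504, 583 and 2252 in monocytes (log2 -2.24, SE 0.34, adjusted p = 0.000303). Cx3cr1, the fractalkine receptor, was at 3704, 5677, 2298 and 3617 and 1045, 882, 259 and 826 (log2 -2.45, SE 0.43, adjusted p = 0.0021). In the 5 libraries the log2 differences of Csf1r and Cx3cr1 were -2.06 and -2.33. Tmem119, Slco2b1 (an organic anion carrier) and Slc2a5 (the fructose transporter) were called with adjusted p = 0.0151, 0.026 and 0.038, and lost the call with the block (adjusted p = 0.0521, 0.0526 and 0.0643). When single libraries were left out, the log2 difference ran from -6.50 (without monocytes 1) to -3.93 (without monocytes 3) for P2ry12, -6.87 (without monocytes 2) to -5.08 (without monocytes 3) for Siglech, -7.40 (without monocytes 4) to -5.62 (without monocytes 3) for Adgrg1, -6.12 (without monocytes 2) to -3.77 (without monocytes 3) for Tmem119, -5.91 (without monocytes 1) to -3.73 (without monocytes 3) for Slco2b1 and -7.56 (without monocytes 4) to -6.24 (without monocytes 3) for Slc2a5. Calls ended for P2ry12, Adgrg1 and Tmem119 without microglia 3 or 4, Siglech without microglia 3, Slco2b1 without microglia 2, 3 or 4 and Slc2a5 without microglia 1, 2, 3 or 4. The 5 libraries gave log2 -3.27 for Tmem119 and -4.04 for Slco2b1. Trem2, a lipid receptor, was at 292, 375, 339.7 and 1.48 in microglia and 137, 108, 309 and 114 in monocytes, and its sign depended on the libraries: log2 0.63 with 8, not called, and -1.47 with 5, called lower.

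Secreted products of microglia gave 5 lower calls of 14 tested and 12 in the 5 libraries, beside 0.493% and 7.14% of all tested genes. Beside Sparc, the called members include Cst3, the cysteine protease inhibitor cystatin C, at 10122, 13427, 4436 and 3897 in microglia and 1214, 1308, 309 and 1103 in monocytes (log2 -3.02, SE 0.42, adjusted p = 8.22e-05). Olfml3, a matrix protein, was at 1302, 1389, 974 and 1144 and 199, 179, 1.32 and 153 (adjusted p = 0.0489, block adjusted p = 0.0643). Npnt, the integrin ligand nephronectin, was at 279, 331, 214 and 548 in microglia and had 3 reads over the 4 monocyte libraries, so that microglia were 1415 times higher (95% counting interval 484 to 6860, adjusted p = 0.0262). Without monocytes 2 the Npnt ratio was 948. If 1 library was left out, the log2 difference ran from -4.90 (without monocytes 1) to -2.75 (without monocytes 3) for Olfml3. Adjusted p passed 0.05 for Olfml3 without microglia 3 or 4 and Npnt without microglia 1, 2 or 3. With the 5 libraries Olfml3 differed by log2 -2.93. Cst3 was high in every library, in contrast to Npnt. Tgfb1, at 471 to 1708 in microglia and 489 to 1495 in monocytes, was called in neither set.

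Complement components were called in both directions, 1 higher and 3 lower of 12 tested, beside 0.415% and 0.493% of all tested genes. Of the 12, 2 reached the minimum only in monocytes, Cd93 among them. In the 5 libraries 6 were called higher and 4 lower, beside 8.41% and 7.14% of all tested genes. The 3 chains of C1q, which starts the classical pathway, were lower in monocytes, and Cd93, a receptor of phagocytes once taken for a C1q receptor, was higher. C1qa was at 808, 1161, 1133 and 2458 in microglia and 153, 144, 411 and 124 in monocytes (log2 -2.79, adjusted p = 0.028, block adjusted p = 0.0561). C1qb was at 1405, 1648, 2145 and 2126 and 344, 510.3, 523 and 390.2 (log2 -2.05, SE 0.47, adjusted p = 0.0255), and C1qc at 2084, 2143, 2060.4 and 1283 and 417, 404, 309 and 368 (log2 -2.31, SE 0.48, adjusted p = 0.0109). The chains were thus present in all 8 libraries, and their fitted differences lay between log2 -2.79 and -2.05. C3, the central component, was at 5.17, 7.75, 1.25 and 4.45 in microglia and 206, 468, 539 and 286 in monocytes, without overlap (adjusted p = 0.0535; in the 5 libraries log2 5.37, adjusted p = 8.05e-06). Cd93 was at 1129.7, 1124, 15.9 and 989 in monocytes and at most 4.73 in microglia (adjusted p = 0.0422, block adjusted p = 0.0527). After leaving out 1 library, the log2 difference ran from 7.42 (without monocytes 1) to 9.45 (without monocytes 3) for Cd93. Calls were lost for C1qa without microglia 2, 3 or 4, C1qb without microglia 3 or monocytes 1, C1qc without microglia 3 and Cd93 without any 1 library but microglia 1 or 2 or monocytes 3. The 5 libraries gave log2 8.82 for Cd93. Cfp and Cfb, of the alternative pathway, were also called higher in the 5 libraries (log2 3.81 and 3.79).

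Immediate early genes, which cells switch on within minutes of a stimulus or of tissue handling, were called in small part. Of 24 tested, 4 were called lower in monocytes and none higher, beside 0.493% of all tested genes called lower. The list median was -0.61. In the 5 libraries 4 were called higher and 7 lower, beside 8.41% and 7.14% of all tested genes. Egr1 was at 2539, 2267, 17702 and 9280.4 in microglia and 307, 247, 587 and 422 in monocytes (log2 -3.90, SE 0.52, adjusted p = 4.44e-05, and log2 -2.91 in the 5 libraries), and microglia 3 and 4 were the highest. Rhob, an endosomal GTPase, was at 1839, 1880.4, 6099 and 5834 and 338, 423, 272 and 399.9 (log2 -3.23, SE 0.48, adjusted p = 0.000191, and log2 -2.27 in the 5 libraries), and Jun at 2004, 2381, 5339.6 and 2463 and 702, 1070.2, 499.6 and 499 (log2 -2.09, SE 0.42, adjusted p = 0.00797). Egr3 was at 677, 316, 922 and 629.8 and 38.2, 0, 0 and 7.27 (log2 -7.13, SE 1.57, adjusted p = 0.0193, and log2 -6.08 in the 5 libraries). For these 4, without 1 library the log2 difference ran from -8.20 (without monocytes 1) to -6.44 (without monocytes 2) for Egr3. Calls ended for Jun without microglia 3 and Egr3 without microglia 1, 3 or 4. By contrast Fos was at 1622, 1454, 2743 and 2787 and 1748, 2318, 1609 and 1279.7, Nr4a1 at 897 to 3575 and 974 to 1708, and Zfp36 at 1621 to 9713 and 1246 to 7341, and none of these was called in either set. Fosl2 and Nr4a2 had the opposite direction: Fosl2 was at 245, 142, 588 and 323 in microglia and 1071, 1002, 2016 and 1103 in monocytes, and Nr4a2 at 10.3, 4.73, 0 and 0 and 596, 293, 258 and 254, without overlap. Both missed the call with 8 libraries (adjusted p = 0.0927 and 0.0546) and were called higher in the 5 (log2 2.50 and 5.46).

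Cytokines gave 1 call of 21 tested, Il1a, an alarm cytokine, at 2361, 1168, 717 and 1511 in microglia and 86.5, 73.8, 0 and 128 in monocytes (log2 -5.44, SE 1.18, adjusted p = 0.0178, and log2 -4.13 in the 5 libraries). Here, without 1 library, the log2 difference ran from -6.14 (without monocytes 4) to -3.80 (without monocytes 3) for Il1a. Adjusted p passed 0.05 for Il1a without microglia 3 or 4. Its relative Il1b ran the other way without overlap, at 868, 445, 67.4 and 349.7 and 1756, 1843, 1261 and 1272, and was not called with 8 libraries (adjusted p = 0.0927) but was called higher in the 5 (log2 1.37). Il1rn, the antagonist of both, was at 18.1, 12.9, 11.2 and 320.1 and 555, 486, 1089 and 451, and was called higher in the 5 (log2 4.93). The neutrophil attractant Cxcl2 was called higher there as well (log2 2.72), whereas Tnf and the chemokines Ccl3 and Ccl4 were called lower (log2 -2.90, -1.82 and -2.09). In all, 9 of the 21 were higher and 6 lower in the 5 libraries, beside 8.41% and 7.14% of all tested genes. With 8 libraries, the share of all tested genes called lower was 0.493%. Among 10 chemoattractant receptors, Cxcr4 (higher) and Cx3cr1 (lower) were the 2 calls with 8 libraries, beside 0.415% and 0.493% of all tested genes. In the 5 libraries 4 were called higher and 3 lower, beside 8.41% and 7.14%. The higher ones include Ccr1, Ccr2 and Fpr2 (log2 2.06, 6.08 and 4.65), and the lower ones include Ccr6 (log2 -5.31).

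The lists of type I interferon response (26 tested, median log2 difference 1.62), glycolysis and hypoxia (25, median 1.79), myeloid transcription factors (22, median 0.78) and cell cycle (14, median 0.21) had no called member in the 8 libraries. Their counts in the 5 libraries stand beside 8.41% of all tested genes called higher and 7.14% lower. In the 5 libraries, 14 interferon genes were called higher and none lower, among them Ifitm3, which blocks virus entry, at 69.7, 68.8, 49.9 and 1.48 in microglia and 516, 965, 373 and 1045 in monocytes (log2 3.52, SE 0.31; with 8 libraries adjusted p = 0.0565). Slfn5 was at 77.5, 77.02, 52.4 and 0 and 516, 654, 549 and 703, without overlap (adjusted p = 0.0901 with 8). Of the glycolysis and hypoxia genes 16 were called higher and none lower, among them Hif1a, the hypoxia factor itself (log2 1.84), Aldoa (1.89), Pkm (1.46) and Ndrg1 (5.26). Of the transcription factors, 4 of which reached the minimum only in monocytes, 9 were higher and 1 lower, or 5 and 1 without those 4. Runx3, at 7.75, 1.72, 0 and 0 in microglia and 293, 212, 260.4 and 359 in monocytes, and Bhlhe40, at 2.58, 6.45, 0 and 0 and 272, 360.0, 115 and 383, did not overlap between groups, and their adjusted p with 8 libraries was 0.0622 and 0.0739. Cell cycle genes had no higher and 3 lower calls in the 5 libraries. Mki67, a marker of dividing cells, was at 798, 765, 127 and 736 in microglia and 133, 107, 0 and 184 in monocytes (log2 -2.49 in the 5). The one call among 33 pattern recognition and Fc receptor genes in the 8 libraries was Lilrb4a, an inhibitory receptor, at 116, 57.7, 14.98 and 1.48 and 561, 596, 796 and 926 (adjusted p = 0.0377, block adjusted p = 0.0742). There, without 1 library, the log2 difference ran from 3.88 (without microglia 4) to 5.73 (without microglia 1) for Lilrb4a. The call was lost for Lilrb4a without any 1 library but microglia 1, 2 or 4. With the 5 libraries Lilrb4a differed by log2 3.03. Of the 33 receptor genes, 11 were called higher and 2 lower in the 5 libraries, beside 8.41% and 7.14% of all tested genes.

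**Figure D4:**
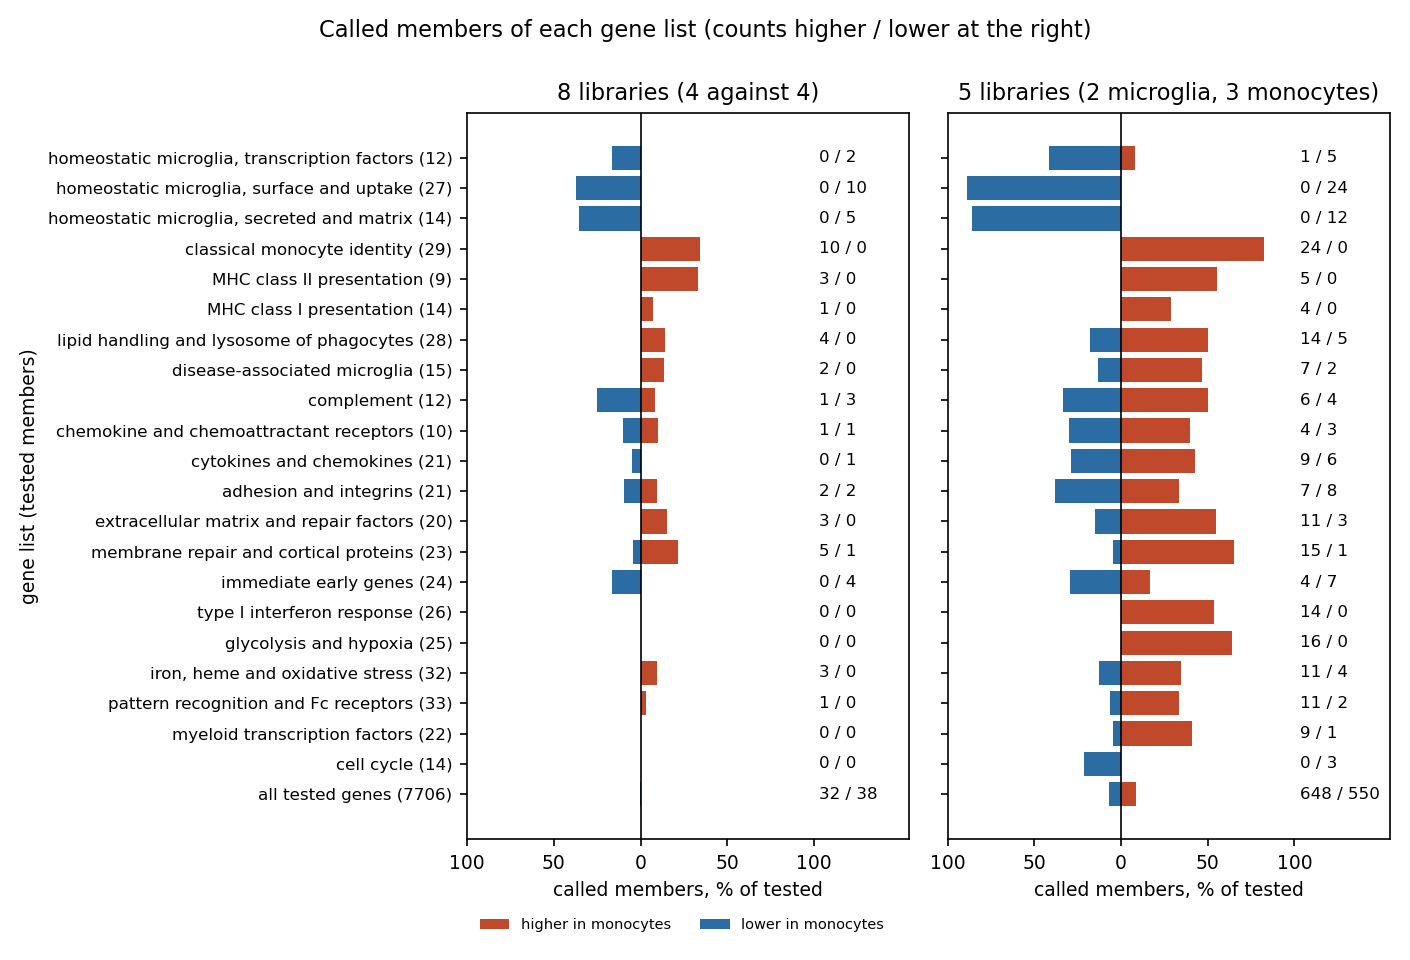
Share of the tested members of each gene list called higher (red, right of 0) or lower (blue, left of 0) in monocytes, with all 8 libraries and without the 3 of few detected genes; tested members are in parentheses and the counts, higher and lower, at the right of each panel. The type I interferon and glycolysis lists have no call in the left panel and 14 and 16 higher calls in the right one, beside 648 and 550 of all 7706 genes.

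Several defining markers of other cells were at or near 0, but the summed levels of some of their lists differed between the groups or stood out in single libraries. Of 20 neutrophil genes in the table, 3 were at 0 in monocytes 4, against 12, 13 and 18 in monocytes 1 to 3. S100a9 was at 383 in monocytes 4 and 0 in monocytes 1 to 3, S100a8 at 259 against at most 1.88, and Cxcr2 at 121 against at most 3.13. The neutrophil-defining Ly6g was at 0 in monocytes 4, and at most 0.104 in any library. The summed neutrophil list was 517 to 796 in monocytes 1 to 3, 2436 in monocytes 4 and 892 to 1462 in microglia, where Csf3r alone was at 892 to 1457. Without monocytes 4 the fit called 83 genes, 21 higher and 62 lower, and the part of these markers in the results was not tested. Markers of other brain cells stood out in microglia 3 and 4: the astrocyte gene Gfap was at 353 in microglia 4 against at most 12.1 elsewhere, and Olig2, of the oligodendrocyte lineage, was at 142 and 363 in microglia 3 and 4 against at most 0.43 elsewhere. The neuron list summed to 1292 in microglia 4, 340 to 501 in the other microglia and 1.32 to 67.9 in monocytes, and its 1 call was Cacna1a. B cell markers summed to at most 26.7, erythroid ones to at most 18.9 and mural and fibroblast ones to 179 in microglia 4 and at most 41.3 elsewhere.

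Summed levels of other such lists are given without a test. Counts of calls stand beside 0.415% higher and 0.493% lower of all tested genes with 8 libraries, and 8.41% and 7.14% with 5. Of 12 markers of macrophages of the brain's borders, Lyve1, Cd163 and Folr2 reached at most 5.17, 13.8 and 26.9, but the list summed to 249 to 827 in microglia and 1552 to 2925 in monocytes. Its abundant members include F13a1, a transglutaminase, at 2.58, 3.01, 0 and 0 in microglia and 483, 862, 2.64 and 540.5 in monocytes, and Siglec1, a sialic acid lectin, at 64.6, 135, 186 and 7.41 and 523, 660.5, 1389 and 589. Ms4a7, which reached the minimum only in monocytes, was at 321, 352, 123 and 269 there and at most 2.58 in microglia (adjusted p = 0.0768), and Mrc1, the mannose receptor, at 412, 315, 0 and 194 and 165, 89.9, 0 and 0. None of its 4 tested members was called with 8 libraries, and Ms4a7, Siglec1 and Mrc1 were called higher in the 5 (log2 6.54, 2.64 and 1.26). Among dendritic markers, Flt3, Xcr1 and Clec9a reached at most 24.2, 12.1 and 9.57. That list summed to 646 to 1056 in microglia, where Fscn1 was its most abundant member, to 0 in monocytes 3 and to 431 to 633 in the other monocyte libraries. Fscn1 was its 1 called member of 3 tested, and in the 5 libraries Clec10a was called higher as well (log2 4.67). The endothelial markers Cdh5 and Tie1 reached at most 11.9 and 5.01, and their list summed to 230 to 514 in microglia and 560 to 965 in monocytes. Of its 5 tested members none was called with 8 libraries and 3 were called higher in the 5, Pltp, Slc2a1 and Kdr (log2 3.27, 1.84 and 1.83). Astrocyte markers summed to 1502 to 3118 in microglia and 6123 to 15342 in monocytes, where nearly all of it was Apoe, which macrophages also make. T and NK markers summed to 5.93 to 132 in microglia and 171 to 563 in monocytes, and no member was called in either set. The part of these markers in the results was not tested.

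Of the 70 called genes, 13 were in no list. Among those higher in monocytes, Ifi207, of the interferon-inducible p200 family, was at 51.7, 27.1, 0 and 16.3 in microglia and 952, 844, 756 and 1408 in monocytes (log2 6.25, SE 1.25, adjusted p = 0.00787, and log2 4.76 in the 5 libraries). Adgre5, the adhesion receptor CD97, was at 402, 574, 122 and 577 in monocytes and at most 4.3 in microglia. Plxnd1, a semaphorin receptor, and Ms4a4a, a tetraspan protein of macrophages, lost the call with the block (adjusted p = 0.0668 and 0.0508). Among those lower, Kctd12, an auxiliary subunit of GABA-B receptors, was tight in both groups, at 4861, 3834, 4504 and 5049.9 in microglia and 1393, 1039.9, 1133 and 994 in monocytes (log2 -2.0, SE 0.30, adjusted p = 0.000191). Arsb, a lysosomal sulfatase, was at 2653, 2219, 3862 and 4503 and 419, 305, 21.1 and 659 (log2 -3.93, SE 0.72, adjusted p = 0.00296, and log2 -2.47 in the 5 libraries), and Tanc2, a scaffold protein, at 1604, 1684, 1364 and 1581 and 86.5, 122, 3.97 and 55.7 (log2 -5.22, SE 0.93, adjusted p = 0.00237, and log2 -4.28 in the 5 libraries). The others were Dst, Marcks, Nav3, Plxdc2, Zfhx3 and Soga1, with fitted log2 differences from -6.39 (Nav3) to -1.58 (Marcks). In this group, without 1 library the log2 difference ran from 5.03 (without microglia 3) to 6.94 (without microglia 1) for Ifi207, 7.65 (without monocytes 4) to 8.48 (without microglia 2) for Adgre5, 4.77 (without microglia 3) to 6.85 (without microglia 1) for Plxnd1, -4.49 (without monocytes 4) to -2.86 (without monocytes 3) for Arsb, -5.74 (without monocytes 2) to -4.20 (without monocytes 3) for Tanc2, -7.0 (without monocytes 4) to -5.17 (without monocytes 3) for Nav3, -6.05 (without monocytes 4) to -3.85 (without monocytes 3) for Plxdc2 and -5.36 (without monocytes 1) to -3.12 (without monocytes 3) for Soga1. Calls ended for Adgre5 and Ms4a4a without microglia 3 or monocytes 1, 2 or 4, Plxnd1 without any 1 library but microglia 1 or 2, Arsb, Marcks, Zfhx3 and Soga1 without microglia 3 or 4, Dst without microglia 1 or 2, Nav3 without microglia 4 and Plxdc2 without microglia 2, 3 or 4. The 5 libraries gave log2 3.27 for Plxnd1, -5.12 for Nav3, -4.46 for Plxdc2 and -2.82 for Soga1. Among noncoding transcripts, Rmrp, the RNA of RNase MRP, was called lower, at 6677 to 13199 in microglia and 3197 to 5629 in monocytes (log2 -1.18, SE 0.22, adjusted p = 0.0044), and lost the call without microglia 3 or 4. Xist, the RNA that coats the inactive X, was present in all 8 libraries, at 6470.2, 4885, 10318 and 7018 in microglia and 2939, 894, 4470.0 and 4367 in monocytes, and was called lower with the block alone (block adjusted p = 0.0161, without it 0.0586). Tsix lies antisense to it, and whether the counting used strand is not given.

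The Cxcr4CreER control libraries show these genes in other animals and with another chemistry, since they were made from polyA RNA with SMART-Seq2. They held 10.4 to 27.2 M reads and 10347 to 13205 detected genes. There, 810 of 12429 tested genes were called between control monocytes and control microglia (6.52%), 430 higher (3.46%) and 380 lower (3.06%). That fit also held the knockout libraries of the line, which entered its filter and its estimate of the spread. Of the 70 genes, 69 were tested there, and Rmrp was not. All 69 had the same sign, 61 were called in the same direction (29 of 32 higher and 32 of 37 lower), 8 were not called and none was called in the opposite direction. The 61 are 88.4% of the GFP calls tested there and 11.5% of the 529 control calls that were tested in the GFP table. With the control libraries fitted alone, 39 of the GFP calls were called in the same direction. 

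Effects were of like size for several leading genes and not for others, although the sizes were not tested against each other and the tables were normalized separately. Sparc differed by log2 -5.08 (SE 0.56) in the GFP table and -4.88 (SE 0.52) in the controls, and Fth1 by 2.27 and 1.91. Cd74 differed by 8.86 (SE 0.99) and 5.68 (SE 0.33), and Ifi207 by 6.25 (SE 1.25) and 1.79 (SE 0.30). Soga1 was the gene with the smallest control difference, log2 -0.40 (SE 2.01, adjusted p = 0.942) against -4.71 (SE 1.05) in the GFP table. The others not called in the controls were Cacna1a (adjusted p = 0.332), Marcks (0.274), Zfhx3 (0.128), Fscn1 (0.0939), Plxnd1 (0.0753), Myof (0.0735) and B2m (0.0675). Cacna1a, a calcium channel subunit also counted among the neuron markers, was at 276, 248, 501 and 645 in microglia and 13.8, 0.936, 0 and 12.1 in monocytes of the GFP table (adjusted p = 0.0486, block adjusted p = 0.067). Its log2 difference was -6.46 with 8 GFP libraries and -5.19 with 5. With 1 GFP library left out it ran from -7.04 (without monocytes 1) to -5.74 (without monocytes 3). The Cacna1a call was lost without microglia 1, 2, 3 or 4 or monocytes 2. Some genes at or near 0 in monocytes 3 that missed the call in the 8 GFP libraries were called in the controls in the same direction, with Ccr2 at log2 10.02 (adjusted p = 1.64e-06), Fn1 at 3.68 (0.00402) and Vegfa at 10.45 (0.000234). These 3 were chosen after their values were seen. Neutrophil genes differed there too: S100a9, at 0 in 3 of 4 GFP monocyte libraries, was called higher in control monocytes (log2 10.96, adjusted p = 0.00413).

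**Figure D5:**
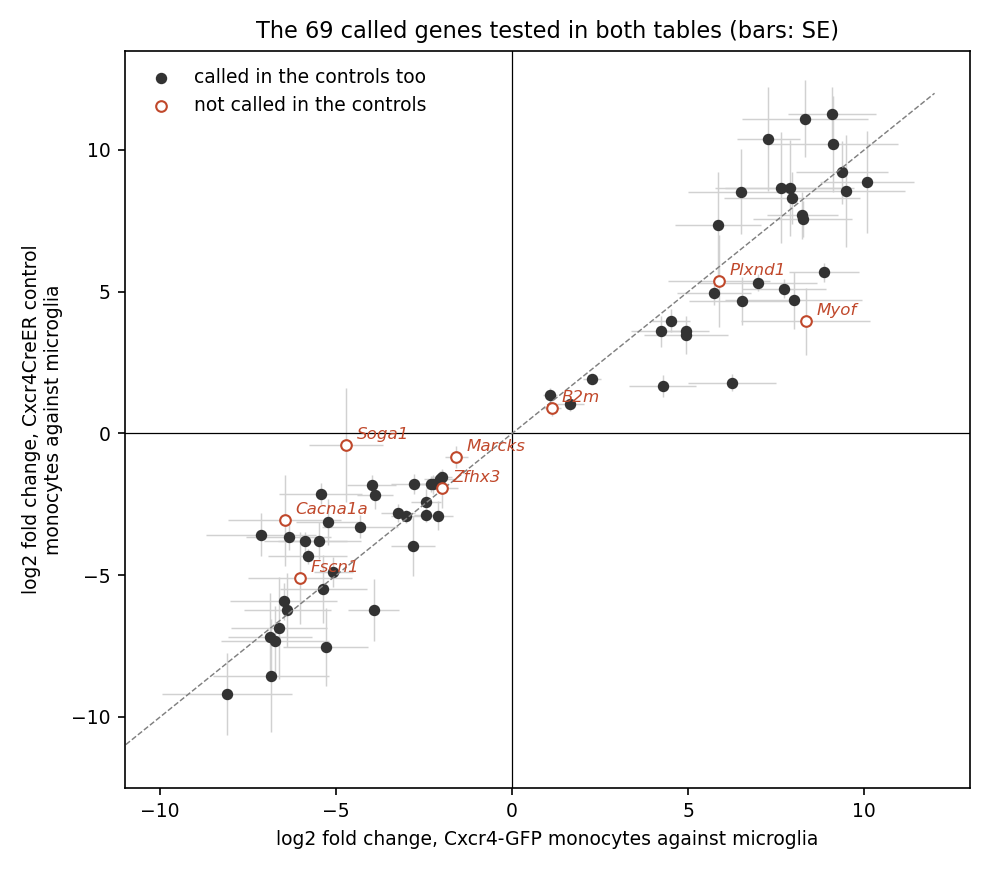
Fitted log2 fold change of monocytes against microglia in the Cxcr4-GFP libraries (x axis) and in the Cxcr4CreER controls (y axis) for the 69 called genes tested in both, with SE bars and a dashed line of equal change. All 69 points have the same sign in both tables, and the 8 open red points, Soga1 nearest to 0 among them, were not called in the controls.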

How the data were processed

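Gene values of 8 Cxcr4-GFP libraries and 12 Cxcr4CreER libraries were used, and 6 of the latter came from control mice. The deposited values are normalized counts (a signal per gene): per the submitters' processing notes the authors used CASAVA 1.82 and DESeq2 for the total RNA libraries (Ovation SoLo kit, per the labels' protocols) and bcl2fastq 2.20, kallisto and DESeq2 for the polyA libraries. No source used here names the first set's aligner, or either set's build or annotation. In every library 100% of the values were whole multiples (tolerance 0.01) of the smallest value, which returned the reads behind them. Whether molecular identifiers were used to remove duplicate reads is not known here, so counting intervals (95%) and floors (3 reads) cover counting error only.

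From these, limma 3.58.1 (R 4.3.3) was run on log2(value + 1) with a mean-variance trend, two-sided, with Benjamini-Hochberg adjustment and without a block, on the 7706 of 16536 genes at 10 or more in at least 4 libraries. Fold changes are on that scale and may understate or overstate the change of genes with low or 0 values. With edgeR, Emp1 moved from log2 9.47 to 11.47 and Tgfbi from 7.73 to 5.98. edgeR 4.0.16 and DESeq2 1.42.0 on the recovered reads, other scalings, filters and pseudocounts, array weights, a replicate block and left-out libraries were alternatives. Per the labels, libraries with the same number came from the same mice. The correlation of their deviations from the group means was 0.24, 0.20, 0.13 and -0.11 in pairs 1 to 4. The highest correlation of the same monocyte library with a microglia library of another pair was 0.21, 0.18, 0.15 and 0.17. The Cxcr4CreER table was fitted over all 4 of its groups (12429 genes at 10 or more in at least 3 libraries). Knockout libraries thus entered its filter and its spread. On simulated data over 7706 genes with 4 libraries a group, 11% of genes changed by log2 5 and 0% of those changed by log2 3 were called with a spread per gene estimated from these libraries, and 100% and 99% at a dispersion of 0.2. The simulation gave a gene the same spread in every library and held no library of few detected genes. Its rates therefore do not describe the fit of the real libraries.

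The genes named are Cxcr4, Cd74, Sall1 and Sparc, then per direction the 12 called genes of smallest p with a mean of 100 or more in the higher group, then up to 4 called members of each of 34 lists (or 2 where none was called), then genes whose call the block changed. Other genes named beside them were chosen after their values were seen. The libraries, genes and lists were chosen with earlier results of these data known. A few genes of these lists are not reported here.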

Additional observations from a re-analysis of the deposited data

Results flagged for a closer look

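Values far from the other 3 libraries of their group are given here: by Dixon's 95% critical value for 4 samples, 63 single libraries stood out over 348 groups of values tested, of which chance marks about 1 in 20. Depth stood out in microglia 2 (5.55 M reads) and monocytes 2 (14.9 M), and the number of detected genes in monocytes 3 (3029).

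Most of these values lay in the libraries of few genes or in the deeper microglia library. In monocytes 3, these were high: C1qa (411 normalized counts), Siglec1 (1389), Ly6c2 (3146), S100a11 (2573), Cd4 (143), Anxa2 (808), Axl (1964), Bhlhe41 (284), Ccl3 (671), Ctsb (36129.9), Fosl2 (2016), Fpr2 (325), Il1rn (1089), Irf8 (416), Ly6e (15404), Tgfb1 (1495), Trem2 (309) and Zfp36 (7341). Low in monocytes 3 were Cd93 (15.9) and, each at 0, Anxa4, Ncf4 and Vegfa. In microglia 4, C1qc (1283) and Ms4a7 (0) were low, and Cd44 (182), Actb (12909), Clec10a (234), Gfap (353), H2-Eb1 (96.3), Il1rn (320.1), Plac8 (113) and Vegfa (120.03) were high. In microglia 3, Jun (5339.6), Soga1 (2976), Slfn4 (2.50) and Clec7a (73.7) were high and Mki67 (127) was low.

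In microglia 2, traces of genes at or near 0 in the other microglia stood out: Emp1 at 0.430, Cd93 at 4.73, Myof at 0.861, Ndrg1 at 5.59, Cd4 at 0.430, Adgre5 at 4.30, Ms4a4a at 2.58, S100a11 at 0.430, Anxa11 at 16.8, Cfb at 35.3, Cxcr2 at 4.30, Flt3 at 5.59, S100a9 at 2.58 and Xcr1 at 1.72. In monocytes 4, the neutrophil genes S100a9 (383), S100a8 (259) and Cxcr2 (121) were high, as were Csf1 (162) and Gfap (12.1). In monocytes 1, Tpx2, a spindle protein, was at 5.01, Lyve1 at 5.01 and Nr4a2 at 596, and in monocytes 2 Ly6g was at 0.104.

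Xist and Tnf differed in direction between the sets of mice. The mean log2 difference of monocytes against microglia in Xist was -1.37 over the 4 GFP pairs, each lower, and 0.357 over the 2 control animals that gave both populations, each higher. In Tnf, an inflammatory cytokine, it was -2.57 and 0.324, again with every pair of a set on its side. These differences between the sets were not tested.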

How the results depend on the processing

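None of the 70 called genes changed direction under any alternative tried. Of the uncalled genes named, Hmox1 turned from log2 -0.19 to a called 2.81 without the 3 libraries of few genes, 2.47 in pairs 1 and 2, 2.98 with array weights and 2.26 with these and the replicate block. Trem2 turned from 0.63 to -1.47, -1.44 and -1.35, and Bhlhe41 from 1.44 to -1.71, -1.82 and -1.47, in the first 3 of these settings, and Cyba from -0.07 to 0.91 with array weights. The call count, 70 (32 higher, 38 lower), was 198 (102, 96) with a pseudocount of 10, 38 (19, 19) with no filter, 13 (11, 2) with upper quartile scaling, 1923 (920, 1003) with array weights, 1198 (648, 550) without the 3 libraries of few genes, 966 (492, 474) in pairs 1 and 2 alone and 181 (109, 72) with DESeq2, which left 2087 genes without an adjusted p. TMM scaling gave 21 higher calls, a minimum of 50 normalized counts 25 lower calls, and edgeR 100 calls (52, 48). Leaving out 1 library at a time gave 33 to 129 calls, 20 to 69 higher and 13 to 62 lower. The cause of these shifts was not tested. The 70 genes all kept their call in the 5 libraries and with array weights, 63 kept it with edgeR, 52 with DESeq2, 52 with TMM, 38 with no filter and 13 with upper quartile scaling. The 7 that edgeR did not call were B2m, Ftl1, Psap, C1qb, Marcks, Plxnd1 and Rmrp. Genes that DESeq2 did not call include these without Plxnd1, and also Fth1, Csf1r, Cx3cr1, Jun and Kctd12.

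With the replicate block, which pairs libraries of the same mice, 60 genes were called (28 higher, 32 lower), and with the block and array weights 1232 (561, 671). Exact sign-flips within the 4 pairs gave p = 0.125 for Cxcr4, Cd74, Sall1 and Sparc alike, the smallest 4 pairs allow. The 61 genes called alike in the controls were 60 with the animal as a replicate block there, 48 when starting from the blocked GFP calls, 150 with a pseudocount of 10 in both tables, 39 with the control libraries fitted alone and 49 to 55 without 1 control library. At 3029 to 5598 detected genes, a 0 in microglia 3, microglia 4 or monocytes 3 does not show that a gene is absent.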
